A study of Mus musculus with 28 samples.

Results

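FoxA1 binding that was first called 48 h after induction was described here as a set of 16057 late events, out of 41726 anti-FoxA1 events called at that time (38.5%). A late event was one with no anti-FoxA1 event within 100 bp at 0, 6, 12 or 24 h. The other 25669 events at 48 h, which had an earlier anti-FoxA1 event within 100 bp, are called retained. The late events were selected on measured values, namely the event calls of the 5 anti-FoxA1 lists, so their absence from the earlier anti-FoxA1 lists is a matter of definition and was not tested. An event that was not called at an earlier time may still have been bound below the caller's threshold.

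The mouse embryonic stem (ES) cells derived from the MC1 line (129S6/SvEvTac) and carried, at the Rosa26 locus, a FoxA1 transgene with a C-terminal His6-FLAG tag that doxycycline (Dox) kept silent. Dox was removed by washing, and culture went on, in place of a medium with LIF, in a differentiation medium with serum for 0, 6, 12, 24 or 48 h, so hours of induction and hours of differentiation cannot be told apart. Each time point had 1 library with an anti-FoxA1 antibody and 1 with an anti-FLAG antibody. A further list, taken to combine 3 libraries of the same line at 24 h, and lists at 24 h for the related factors FoxC1, FoxL2 and FoxP3 (2 libraries each) were also used, in cells that carried those factors in the same way. In all, 14 lists held 162571 events, called by ChExMix as 1-bp positions with a score from 43 to a ceiling of 1000. With 1 library per time and antibody no comparison over samples was possible. Shares therefore carry Wilson 95% intervals and differences Newcombe 95% intervals, which cover counting error only.

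FoxA1 is a forkhead transcription factor that can bind its sites in closed chromatin and is known as a pioneer factor. With its relatives FoxA2 and FoxA3 it acts in the formation of the definitive endoderm and of the liver, pancreas and lung that arise from it. ChIP-exo maps such a factor by trimming the immunoprecipitated DNA with an exonuclease up to the crosslinked protein, so an event marks a position close to the contact itself.

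The sequences around late events are shown first, because they let the 48 h positions be set against the DNA letters that forkhead proteins recognise. Only promoter windows (from 250 bases before to 50 after a start site, RefSeq, GRCm38.p6, which is mm10) had sequence, and 210 late events lay in them. Of these, 3 had an anti-FLAG event within 100 bp at 48 h, and 2 of the 3 were at protein-coding genes: Hpx, which encodes the haem-binding plasma protein hemopexin, and Ces1e, a carboxylesterase gene. They are followed by Fgb, the fibrinogen beta chain gene of the liver list, and by the 6 late promoter events with the highest scores, which were chosen after their values were seen. Each line reads 5′ to 3′ along the strand of the gene, starts 50 bases before the event, so that base 51 is the event, and ends 50 bases after it or at the start site. Capitals mark a match to 1 of 4 forkhead core motifs, TGTTTAC or TGTTTGC or TATTTAC or TATTTGC, on either strand.
Hpx, chr7:105600184-105600284, minus strand: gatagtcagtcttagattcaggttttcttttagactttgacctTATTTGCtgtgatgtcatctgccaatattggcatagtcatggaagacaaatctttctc
Ces1e, chr8:93229620-93229675, minus strand: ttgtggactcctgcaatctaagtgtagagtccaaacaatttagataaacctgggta
Fgb, chr3:83049876-83049976, minus strand: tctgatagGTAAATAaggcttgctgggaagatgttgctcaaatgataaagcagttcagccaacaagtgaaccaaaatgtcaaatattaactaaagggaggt
Rxrb, chr17:34032241-34032341, plus strand: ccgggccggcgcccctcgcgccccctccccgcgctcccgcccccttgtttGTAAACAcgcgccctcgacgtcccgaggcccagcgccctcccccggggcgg
Mrpl45, chr11:97315480-97315580, plus strand: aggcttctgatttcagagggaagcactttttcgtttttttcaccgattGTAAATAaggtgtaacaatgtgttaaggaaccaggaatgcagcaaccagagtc
Zbtb5, chr4:45012501-45012601, minus strand: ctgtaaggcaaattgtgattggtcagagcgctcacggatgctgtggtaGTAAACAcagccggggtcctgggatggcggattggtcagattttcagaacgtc
Popdc2, chr16:38361964-38362064, plus strand: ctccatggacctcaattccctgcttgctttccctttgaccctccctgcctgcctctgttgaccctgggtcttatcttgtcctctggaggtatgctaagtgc
Plscr1, chr9:92250000-92250100, plus strand: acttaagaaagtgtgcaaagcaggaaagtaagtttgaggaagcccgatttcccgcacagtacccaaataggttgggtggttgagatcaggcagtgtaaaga
Mageb16, chrX:79671490-79671590, minus strand: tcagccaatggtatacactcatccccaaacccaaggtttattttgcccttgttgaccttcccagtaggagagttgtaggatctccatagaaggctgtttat

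At Hpx the event lay 118 bases before the start site and 1 base from a match to TATTTGC, with a score of 93 in the anti-FoxA1 list and 48 in the anti-FLAG list. At Ces1e it lay 6 bases before the start site, with scores of 68 and 52 and no match in the letters shown. Neither had an event in any earlier FoxA1 list, and the nearest earlier anti-FoxA1 events were 19618 and 75053 bp away. At Rxrb (score 132, a retinoid X receptor), Mrpl45 (123, a mitochondrial ribosomal protein) and Zbtb5 (111, a zinc finger protein) the event fell inside a match. At Popdc2 (146, a membrane protein of heart and muscle), Plscr1 (136, a phospholipid scramblase) and Mageb16 (111) the letters held no match. At Fgb the event had a score of 50 and the nearer edge of the match was 36 bases from it. None of these 7 promoter events had anti-FLAG support at 48 h, although those at Mageb16 and Zbtb5 had an event in another FoxA1 list before 48 h. Among the listed genes, Pdgfra of the mesoderm list also had a late event in its promoter window, which is not printed. That event scored 54, lay 14 bases after the start site with a match near it, and had no anti-FLAG support.

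Where an event had a match, the match mostly stood at or close to the called position. Of the 150 late events with 50 bases of promoter window on either side, 62 (41.3%, 33.8 to 49.3) had a match within those 101 bases, against 4.73% of all 101-base stretches of the 32817 promoter windows. A match was present in 13.5% of whole windows. Among retained events the share was 147 of 259 (56.8%, 50.7 to 62.6), so late events were lower by 15.4 percentage points (interval of the difference -25.0 to -5.37). Where there was a match, its middle lay a median of 1.5 bases from late and 1 base from retained events. It lay within 10 bases of 38.0% of late events, 52.1% of retained events and 1.08% of all promoter positions. By 4 score classes of like size, described below, the late share in the 2 lower ones was 40.0% against 43.3% and 34.9% against 63.0%. In the next class it was 59.1% (13 of 22) against 52.8%, and no late event with this much sequence lay in the highest class. Late events that appeared in no other FoxA1 list had a match in 44 of 115 cases (38.3%, 29.9 to 47.4), and those that did appear in one in 18 of 35 (51.4%, 35.6 to 67.0), intervals that overlap. ChExMix can use motifs it finds among the events when it places them, but the sources used here do not say whether it did so for these lists. A match is a description of letters and not evidence of a site in use.

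**Figure D1:**
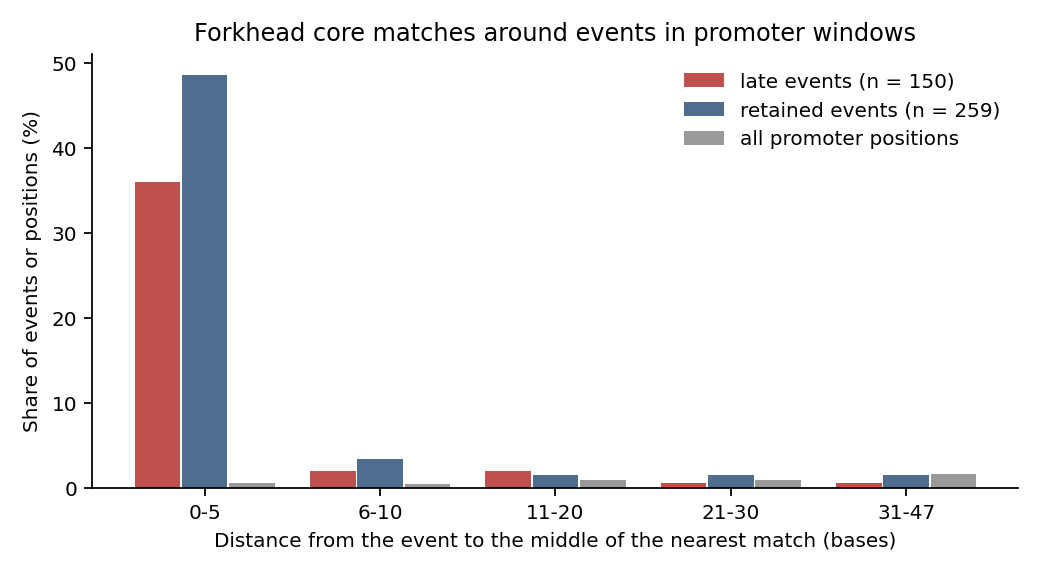
Share of events (vertical axis, %) by distance in bases from the event to the middle of the nearest forkhead core match, for 150 late events, 259 retained events and all positions of the promoter windows. The bars at 0 to 5 bases reach 36.0% for late and 48.6% for retained events and 0.572% for all positions, and the classes beyond 10 bases stay at or below 2.00% for late and retained events.

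The anti-FoxA1 lists held 15, 86, 8345, 35134 and 41726 events in order of time, and the anti-FLAG lists 20, 17, 1656, 15984 and 13899. The longest list of the anti-FoxA1 course was thus at 48 h and that of the anti-FLAG course at 24 h. First calls were most numerous at 24 h, when 27210 of 35134 anti-FoxA1 events (77.4%) had no earlier event within 100 bp. Calls were also lost: 9827 of the 24 h events (28.0%) had no event within 100 bp at 48 h, and these had a median score of 55 at 24 h, against 112 for those that were kept. The depth of each library is unknown, and its part in these list lengths was not tested.

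Late events lay mostly over 1 kb from earlier ones. The rule itself removed all events within 100 bp, and no expected distance was computed. The median distance to the nearest earlier anti-FoxA1 event was 10064 bp (quartiles 2032 and 32403 bp). Between 10 and 100 kb lay 6970 late events (43.4%), between 1 and 10 kb 4980 (31.0%) and beyond 100 kb 1084 (6.75%). Close to the 100 bp limit the division was less clear. From 101 to 200 bp lay 1163 late events (7.24%), and 3022 in all (18.8%) lay within 1 kb of an earlier event. Just inside the limit, at 91 to 100 bp, 231 retained events had a median score of 98 and anti-FLAG support in 36.8%. Just outside it, at 101 to 110 bp, 188 late events also had a median score of 98, with anti-FLAG support in 29.3%.

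**Figure D2:**
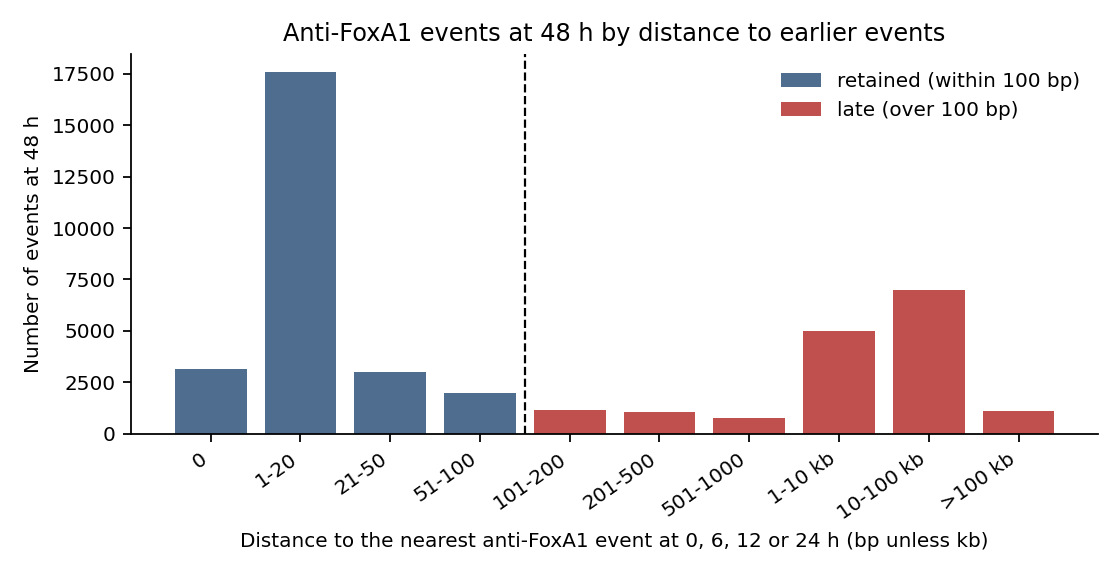
Number of anti-FoxA1 events at 48 h (vertical axis) by distance to the nearest anti-FoxA1 event at 0 to 24 h (horizontal axis, classes of unequal width in bp or kb), with the 100 bp limit as a dashed line. Retained events were most numerous at 1 to 20 bp (17576) and late events at 10 to 100 kb (6970). The single late event with no earlier event on its contig is not drawn.

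Late events had low scores. Their median was 62 (quartiles 51 and 81, highest 927), against 132 for retained events (quartiles 79 and 246), and 0 late but 478 retained events were at the ceiling. The 48 h list was split by score into 4 classes of like size. In them, 71.0% of events with scores of 43 to 59 were late, 52.2% of those from 60 to 89, 25.4% of those from 90 to 169 and 4.28% of those at 170 or above. The lowest class alone held 47.5% of all late events. These scores belong to the list that defined the members and are given as a description.

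**Figure D3:**
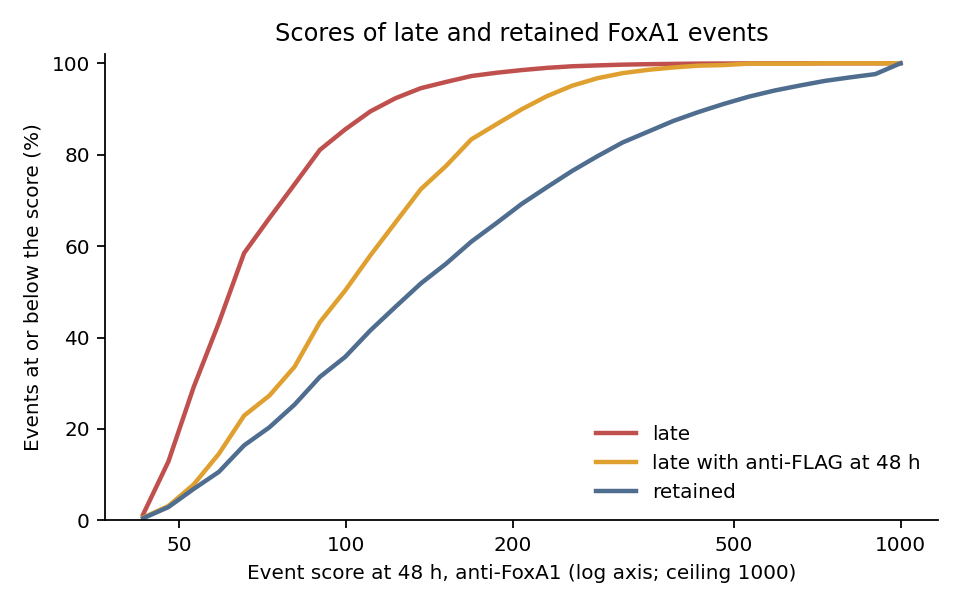
Cumulative share of events (vertical axis, %) at or below each anti-FoxA1 score at 48 h (horizontal log axis) for late events, late events with an anti-FLAG event at 48 h, and retained events. The curve of supported late events (median 99) runs between those of all late (median 62) and retained events (median 132).

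Support by the second antibody was the first measure that the selection did not use. An anti-FLAG event at 48 h lay within 100 bp of 1532 late events (9.54%, 9.10 to 10.0), against 11422 retained events (44.5%, 43.9 to 45.1) and 31.0% of all anti-FoxA1 events at 48 h. The difference was -35.0 percentage points (-35.7 to -34.2). Support followed the score in both sets, and the gap was narrower within score classes. From the lowest to the highest class it was found for 3.33%, 7.62%, 23.6% and 57.3% of late events and for 7.37%, 14.3%, 33.2% and 79.7% of retained events, with an interval of the difference below 0 in each class. Scores still differed within a class, the highest of which ran from 170 to 1000, so the sets were matched on score only in part. For comparison, the events first called at 24 h had an anti-FLAG event at 24 h in 30.6% (30.1 to 31.2), with a median score of 73. Those are another time point, other libraries and lists of other lengths, so the figures were set side by side without a test.

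The pairs that did form were close. The anti-FLAG event lay a median of 11 bp from the late event, and within 20 bp in 63.3%, against 5 bp and 74.0% for retained events. The supported late events had a median anti-FoxA1 score of 99 and a median anti-FLAG score of 66. Across those 1532 events the scores given by the 2 antibodies correlated with a Spearman rho of 0.37, and across the 11422 retained pairs with 0.68, both given as descriptions.

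The other FoxA1 lists at 24 h held part of the late set. Of the late events, 4144 (25.8%, 25.1 to 26.5) had an event within 100 bp in the anti-FLAG list or the combined list at 24 h, against 74.7% of retained events and 55.9% of all events at 48 h. The combined list is taken to include 1 anti-FoxA1 library at 24 h, and whether that library is also the one of the time course is unknown, so part of this gap may follow from how the sets were defined. The combined list accounted for 3545 of these (22.1%) and the anti-FLAG list at 24 h, from another antibody, for 989 (6.16%, against 50.6% of retained events). Only 16 late events (0.0996%) had an anti-FLAG event at 12 h, against 6.97% of retained events. So for 4147 late events another list of the same factor already had a call before 48 h, and "late" holds for the anti-FoxA1 course alone.

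**Figure D4:**
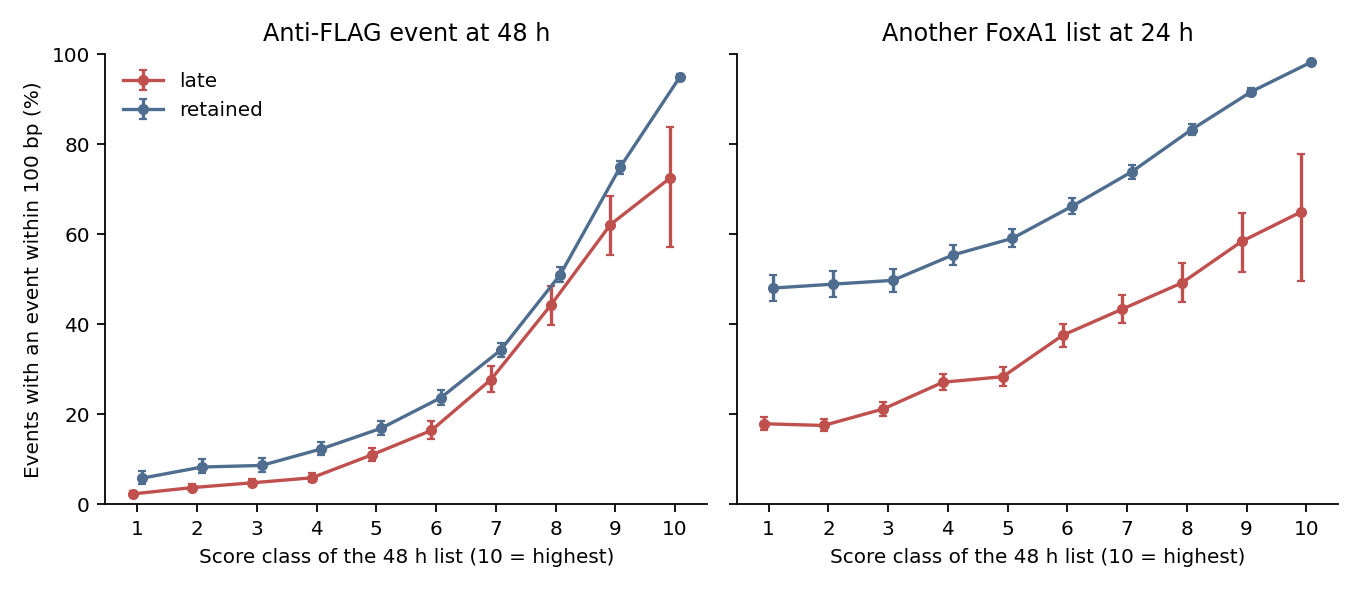
Percent of events with an event within 100 bp (vertical axes) in the anti-FLAG list at 48 h and in another FoxA1 list at 24 h, in 10 score classes of like size of the 48 h list, with Wilson 95% intervals as bars. Late events rise from 2.32% to 72.5% for anti-FLAG and from 17.9% to 65.0% for the 24 h lists, below the retained events in each of the 10, while the highest class holds only 40 late events.

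Crossing these lists divided the late events in 4. Anti-FLAG support at 48 h together with a call before 48 h in another FoxA1 list was found for 780 late events (4.86%, median score 111). Another 752 (4.68%, 4.37 to 5.02, median 92) had anti-FLAG support at 48 h and no earlier event in any FoxA1 list, and are called doubly late below. A further 3367 (21.0%, median 68) had an earlier call in another list and no anti-FLAG support at 48 h. The most numerous, 11158 events (69.5%, 68.8 to 70.2, median 59), were found in no other FoxA1 list used here. Read from the other antibody, 4053 of 13899 anti-FLAG events at 48 h (29.2%) had no earlier anti-FLAG event. Of these, 2283 (56.3%) had an anti-FoxA1 event before 48 h, 1067 (26.3%) had one only at 48 h and 703 (17.3%) had none.

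The 100 late events with the highest scores, 262 or more, were unlike the rest in these respects. Of them, 71 had anti-FLAG support at 48 h, 68 had been called before 48 h in another FoxA1 list, 59 lay within 200 bp of an earlier anti-FoxA1 event and 19 were doubly late. The highest score of all, 927, was inside Bcas3, named here after its value was seen. It lay 117 bp from an earlier anti-FoxA1 event and 75 bp from an anti-FLAG event at 24 h, and its nearest anti-FLAG event at 48 h was 117 bp away, past the limit for support.

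The 10 highest-scoring doubly late events divided in the same way. At 5 of them an event of some earlier FoxA1 list stood just past the limit. The event 34183 bp from Fam155a (chr8, position 9171823), a gene for an auxiliary protein of a sodium leak channel, had an anti-FoxA1 score of 681 and an anti-FLAG score of 430 at the same base, with an anti-FoxA1 event at 24 h 106 bp away. The event 1580 bp from Map1b, which encodes a microtubule-associated protein of neurons, scored 498 and 204 and was 112 bp from an earlier one. Near Rgn, the gene of the calcium-binding protein regucalcin, the scores were 382 and 126 and the distance 114 bp. Inside Me1, the cytosolic malic enzyme gene (chr9, position 86665057), the scores were 492 and 476, with an anti-FLAG event at 24 h 104 bp away. The event 97332 bp from Qrsl1, a gene of a mitochondrial amidotransferase subunit, scored 406 and 358 and was 164 bp from an event of the combined list.

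At the other 5 the nearest event in the earlier anti-FoxA1 lists, the anti-FLAG list at 24 h or the combined list was at least 23896 bp away. Inside Tfec (chr6:16830927-16898464), which encodes a basic helix-loop-helix leucine zipper transcription factor, the event at position 16896217 scored 329 with anti-FoxA1 and 238 with anti-FLAG, and no such earlier event lay within 162775 bp. Inside Usp25, a deubiquitinase gene, the scores were 339 and 174 and the nearest earlier event was 41836 bp away. Inside Dera, the gene of deoxyribose-phosphate aldolase, they were 412 and 224, with 49427 bp to the nearest earlier event. The event 11824 bp from Frmpd2, a gene for a FERM and PDZ domain protein, scored 501 and 116, and the one 35643 bp from Ceacam10, of the carcinoembryonic antigen family, scored 419 and 103. The anti-FLAG event at 48 h lay 22 bp away at Tfec, 26 bp at Usp25, 3 bp at Dera, 56 bp at Frmpd2 and 50 bp at Ceacam10. Both antibodies thus had a call within 100 bp at 48 h at these 5, away from any event in those earlier lists.

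By gene location, 16040 late events lay on chromosomes 1 to 19, X and Y. The share of 48 h events that were late was similar across the autosomes and X, from 37.0% on chromosome 1 to 41.2% on chromosome 18. Of the late events, 8690 lay inside protein-coding genes (54.2%, 53.4 to 54.9), against 51.8% of retained events, a difference of 2.38 percentage points (1.40 to 3.37). Exons, introns and UTRs were not analysed here. Start sites were known for 17492 of the 21887 protein-coding genes, so shares near them are lower limits. Within 1 kb of such a start site lay 562 late events (3.50%), against 2.91% of retained events (difference 0.594, 0.247 to 0.950). Within 1 kb of either gene end lay 6.28%, against 5.02%. Within score classes the differences at start sites and gene ends were not of 1 direction. In the lowest score class late events were higher, by 1.02 points (0.211 to 1.77) at start sites and 2.05 points (1.05 to 2.99) at gene ends. In the other 3 classes, in order of score, the differences turned to -0.609, -0.805 and -1.13 points at start sites, where the interval of the middle one (-1.46 to -0.0619) alone excluded 0, and to -0.326, -0.0663 and -1.27 points at gene ends, where each interval included 0. Inside genes the late share was higher in each class, by 3.81, 5.12, 2.27 and 2.42 points, with an interval that included 0 in the highest. Most binding in both sets was thus away from promoters.

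Position relative to genes differed with the antibody support. Late events with anti-FLAG support lay within 1 kb of a start site in 13 of 1531 cases (0.849%, 0.497 to 1.45), late events without it in 3.78% (3.49 to 4.11) and retained events with it in 1.73% (1.50 to 1.98). Doubly late events were at start sites in 7 of 751 cases (0.932%). Outside genes and over 100 kb from any protein-coding gene end lay 14.5% of supported late events (12.8 to 16.4), against 8.62% of unsupported late events and 10.5% of retained events with support (9.96 to 11.1). Supported late events also had higher scores (median 99 against 59), and the late share at start sites fell with the score, from 4.33% in the lowest class to 2.27% in the next to highest. Within the 3 lower classes, supported minus unsupported late events came to -2.84, -2.59 and -2.33 points at start sites and to 13.7, 5.85 and 4.18 points over 100 kb from genes, each with an interval that excluded 0. In the highest class the differences were 0.124 points (-2.69 to 2.48) and 1.78 points (-3.98 to 7.14). Retained events with support were not compared within score classes. Only 13 supported late events lay near start sites, which limits what can be said of single promoters.

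Of 21887 protein-coding genes, 12871 (58.8%) had a late event within 50 kb of either end, 1944 (8.88%) had one with anti-FLAG support at 48 h, and 1397 (6.38%) had a late event where no anti-FoxA1 event had been called up to 24 h. Retained events were near 66.4% of all protein-coding genes. These shares are the background for the gene lists, and distances below are to the nearer gene end. A gene had a median of 1 and at most 17 late events, and 482 genes had 6 or more. Neighbouring genes share events, so genes are not independent of each other.

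Endoderm regulators had late events at 17 of 20 members (85.0%, against 58.8% of all protein-coding genes), with a median of 2. Retained events were near 19 of the 20 (95%, against 66.4% of all genes), and near 90.0% of the pluripotency, signalling and housekeeping lists. Gata4 (chr14:63198914-63271712), a zinc finger factor of early endoderm and heart, had 9 late events beside 7 retained ones, none supported by anti-FLAG, with scores up to 132. Inside the gene lay 5 late events, and the nearest to a gene end was 6324 bp from it. Gata6, its relative in primitive endoderm, had 4 with a highest score of 128, and 1 of them was doubly late, with scores of 51 and 48 with the 2 antibodies. Hhex, a homeobox factor of anterior endoderm and liver, had 4 with a highest score of 277, and the 1 with anti-FLAG support scored 79 and 52. Foxa3 and Foxa2, the close relatives of the induced factor, had 3 and 2, none supported. Sox7, a factor of primitive endoderm, was the single member with a late event and no earlier one. That event had a score of 44, close to the lowest in the list, lay 9563 bp away and had no anti-FLAG support. No late event was found near Gsc, Cer1 or Onecut1. In all, 2 of the 20 had a supported late event, 10.0% against the background of 8.88%.

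Liver genes had late events at 17 of 20 members (85.0%, against 58.8% of all protein-coding genes). Supported ones were found at 4 (20.0%, against 8.88%), which were Fga, Fgb, Fgg and Apob. The fibrinogen genes Fga, Fgb and Fgg, whose products form the clot protein, are neighbours on chromosome 3 and share events, so they count as 1 locus here. The 20.0% counts this locus once for each of its genes. Fgb (chr3:83042246-83049863) had 6 late events, among them the promoter event shown above. Anti-FLAG supported 2 of the 6, with anti-FoxA1 scores of 126 and 152 and anti-FLAG scores of 130 and 67, and 1 of these was doubly late. Fga had 5, which include both. Apoa1, the main apolipoprotein of high-density lipoprotein, had 4, the nearest 293 bp from a gene end with a score of 45. Tat, the tyrosine aminotransferase gene, had 4, the nearest 309 bp away with a score of 146, and none of these 8 was supported. The 1 late event of Apob, which encodes the main protein of low-density lipoprotein, lay 27140 bp away and was supported, with scores of 93 and 66. Alb, for serum albumin, and Afp, for alpha-fetoprotein, shared an unsupported event with a score of 213. Retained events were near 17 of the 20 as well (85.0%, against 66.4% of all genes).

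Lung, gut and epithelial genes had late events at 15 of 20 members (75.0%, against 58.8% of all protein-coding genes). A supported one was found at 1 (5%, below the 8.88% of all genes), Elf3, an epithelial ETS factor (98 and 47). Krt18 and Krt8, the neighbouring genes of simple epithelial keratins, had 6 and 5 late events, which they share in part, with scores up to 74. Cdh1, for E-cadherin, had 5 late beside 19 retained events, and Cldn4, a tight junction gene, had 3. The lung factor Nkx2-1 had none and no earlier one in its window.

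Pluripotency genes, active in the starting cells, also had late events at 17 of 20 members (85.0%, against 58.8% of all protein-coding genes). Esrrb, a nuclear receptor of naive ES cells, had 6 beside 14 retained events, with a highest score of 209. Tdgf1, a Nodal co-receptor, had 5, Tbx3 4 and Prdm14 4. The only supported one in the list was at Klf4 (score 44 with anti-FoxA1 and 48 with anti-FLAG, doubly late). Klf4 alone is 5% of the list, against 8.88% of all protein-coding genes. Nanog had 2, Sox2 1 and Pou5f1 none, while 8 retained events lay near Pou5f1. The pluripotency count thus equalled those of the endoderm and liver lists.

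Lists of other lineages were near the background of 58.8%. Mesoderm genes had late events at 9 of 20 members, led by Pdgfra, a growth factor receptor, with 3, Tbx20 and Meox1 with 2 each and Foxc2 with 1. Neural genes had them at 10 of 20, led by Zic2, a zinc finger factor, with 6, and by the homeobox or paired-box factors Pax6, Pax7 and Dlx2 with 2 each. Trophectoderm genes had them at 8 of 15, led by Tead4 with 6 and Tfap2a with 5, then Tfap2c with 3 and Plet1 with 2. The supported events were at Tbx20 (score 139 with anti-FoxA1 and 51 with anti-FLAG) and Zic2 (54 and 86), with none in the trophectoderm list. Supported shares were thus 5% in the mesoderm list and 5% in the neural list, against 8.88% of all protein-coding genes. Mesp1, a factor of early mesoderm, Lhx2, a forebrain homeobox factor, and Ascl2, a trophoblast factor, each had 1 late event with no earlier one in the window, with scores of 57, 44 and 75 and no anti-FLAG support.

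Signalling genes had late events at 15 of 20 members (75.0%, against 58.8% of all protein-coding genes). Supported ones were found at 3 (15.0%, against 8.88%), Id2 (145 and 78), Dusp6 (128 and 76) and Bmp2 (134 and 97). Lefty2 and Lefty1, secreted Nodal inhibitors, had 4 and 3, and Fgf8 and the Wnt receptor gene Fzd7 had 3 each. Fgf5, a growth factor that rises as ES cells leave the naive state, had 1 late event with a score of 98, 2282 bp away, and no earlier one. Housekeeping genes, taken as a list with no link to endoderm, had late events at 15 of 20 and supported ones at 2 (10.0%, against 8.88%). Ywhaz and Atp5b had 5 late events each, and Polr2a and Rpl13a had 3 each. The supported ones were at Ywhaz (113 and 52) and Polr2a (210 and 132). Their 75.0% lies above the 58.8% of all genes too, so a share of that height was not limited to endoderm or liver genes.

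Forkhead genes had late events at 32 of 44 members (72.7%, against 58.8% of all protein-coding genes). Support was found at Foxp4, Foxp3 and Foxd3 (6.82%, against 8.88%). Of these, the supported event near Foxp3 had the highest score (284, and 67 with anti-FLAG). That event lay inside another gene, Ppp1r3f. Foxp1, a repressor, had 8 within 50 kb of its ends, with scores up to 86. It is a large gene with 8 late events inside it, most of them outside those windows. Foxj2 had 5, Foxm1, a cell cycle regulator, had 4, and Foxo3, a target of insulin signalling, had 3. At Foxa1 itself (chr12:57540628-57548029) there were 2 late events, the nearest 3405 bp away with a score of 100 and the higher of them at 118. Neither was supported by anti-FLAG, the window held 2 anti-FoxA1 events up to 24 h, and no retained one. Around Rosa26, where the transgene sits (chr6:113067428-113077244), there were 3 retained and no late events. Foxo6 had 1 late event with a score of 44 and no earlier one.

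**Figure D5:**
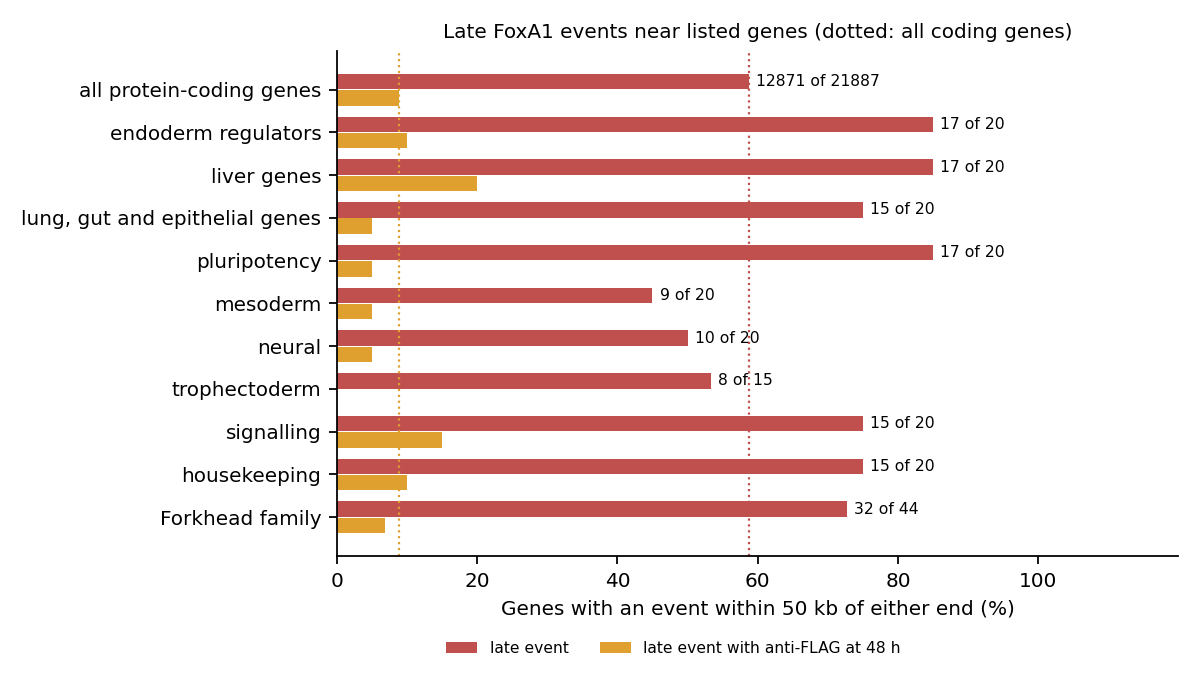
Percent of genes (horizontal axis) with a late event, and with a late event that had anti-FLAG support at 48 h, within 50 kb of either end, for all protein-coding genes and for 10 gene lists. Dotted lines mark the shares of all protein-coding genes, 58.8% and 8.88%. Endoderm, liver and pluripotency lists stand at 85.0%, housekeeping genes at 75.0% and mesoderm genes at 45.0%.

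The genes with the most late events were of mixed function. Clmn, for the membrane protein calmin, had 17, Frmd6, a FERM domain protein of Hippo signalling, and Fhad1 had 14 each, and Pik3cb, a catalytic subunit of phosphoinositide 3-kinase, and Cipc, a circadian regulator that binds CLOCK, had 13 each. Tekt5, a sperm flagellum protein, Dmrt1, a regulator of testis and germ cells, Rock2, a kinase of the actin cytoskeleton, and Irf2bpl had 12 each, and Emp2, an epithelial membrane protein, had 11. All 10 also had retained events, from 5 at Fhad1 and Dmrt1 to 23 at Irf2bpl, and anti-FLAG supported at most 1 of the late events at each gene. Clmn, Frmd6, Cipc, Rock2 and Irf2bpl are all on chromosome 12, and Cipc and Irf2bpl lie close together and share events, as do Tekt5 and Emp2 on chromosome 16.

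Few late events lay where the other Forkhead factors had been called at 24 h. A FoxC1 event lay within 100 bp of 49 late events (0.305%, against 2.28% of retained events), a FoxL2 event near 259 (1.61% against 4.22%) and a FoxP3 event near 186 (1.16% against 4.72%). Any of the 3 was found at 445 late events (2.77%, 2.53 to 3.04), against 8.83% of retained events, a difference of -6.06 percentage points (-6.49 to -5.63). The difference stayed below 0 within each score class, from -3.53 points (-4.49 to -2.66) in the lowest to -8.63 (-10.1 to -6.43) in the highest. These lists come from other lines at 24 h and are much shorter, with 1112, 7244 and 4385 events.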

How the data were processed

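ChIP-exo libraries of induced mouse ES cells were used as the deposited event lists: 19 of the 28 libraries of the series, in 14 lists. Some items of the series are not reported here. Per the submitters' processing notes, BWA 0.7.17-r1188 aligned the reads to mm10, and Picard and SAMtools were also used. The file headers name ChExMix as the event caller. The deposited value of an event is a score, whose scale the authors do not state in the sources used here. The caller's version, its thresholds and controls, and how the 24 h libraries were combined are not given there either. The lists hold no reads, so depth is unknown.

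Events were matched between lists by position, within 100 bp. Genes came from a RefSeq table of GRCm38.p6 (mm10) with 21887 protein-coding genes and no exon models, and start sites and promoter letters from a RefSeq promoter table that held 17492 of them. All 175 list symbols matched. The members and the gene lists were chosen with earlier results of these data known. Named genes were up to 4 members of each list with the most late events (ties by the nearest event), list members with late events alone, the 10 genes with the most late events, the genes nearest the 10 highest-scoring doubly late events, Foxa1, Rosa26 and genes with a supported late event in the promoter window. Other list members are named where their list has few supported or unreached members, or as familiar markers, after their values were seen.

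Wilson 95% and Newcombe 95% intervals were computed in Python 3.11.15 with numpy 2.4.6, pandas 2.3.3, scipy 1.17.1 and statsmodels 0.14.6. The matching and gene steps were tested on simulated data. Alternatives changed the distance, score floor, event set, gene window, gene end and gene types. A shared base and a distance over 1 kb were added after the data were seen.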

Additional observations from a re-analysis of the deposited data

How the results depend on the processing

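The matching distance and the score set most of the counts. With 50 bp and 500 bp in place of 100 bp, late events were 43.2% and 33.1% of the 48 h list in place of 38.5%, and 31.2% when events had to lie over 1 kb from any earlier one. With the upper part of the 48 h list by score (at or above the median of 89) there were 3044 late events (14.7%), of which 28.5% had anti-FLAG support in place of 9.54% and 43.0% a call in another 24 h list in place of 25.8%. Events within 1 kb of a gene end were then 4.93% in place of 6.28%, and 8 endoderm regulators in place of 17 had a late event, against 19.5% of all protein-coding genes. With a shared base, 38574 events (92.4%) would be late, with anti-FLAG support for 2.81% and another 24 h call for 4.24%. With over 1 kb, support was 9.04%, and with 500 bp another 24 h call was found for 27.2%. Supported late events alone gave 2.74% at gene ends and 2 endoderm regulators, against 8.88% of all protein-coding genes. Late events inside genes were 55.2% without those called before 48 h in another list and 63.0% with genes of all types, and 22.3% lay within 5 kb of a gene end. The remaining 22 alternatives moved their values by less than the interval, or by less than 1.5 times for counts.

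No paired analysis was possible because each time and antibody had 1 library, and the combined lists do not keep their libraries apart. Leaving out a replicate could not be done for the same reason. Unknown depth limits every absence of a call: an event missing before 48 h was not detectable in those lists, which differ in length. Sequence was at hand for promoter windows alone, and distal events, the bulk of the set, were not read.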

Other observations

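Joined over gaps of up to 1 kb, late events made 15336 sites, of which 681 held several events (8.73% of late events). Joined over gaps of up to 10 kb they made 13121 sites, of which 2238 held several (32.2% of late events) and 494 held 3 or more, and the largest had 10 events, at Cipc on chromosome 12. A site next to Aco1, which encodes an iron-responsive aconitase, held 6 late events on chromosome 4, of which 3 had anti-FLAG support at 48 h.

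Among genes with late events and no anti-FoxA1 event up to 24 h in the 50 kb window, Usp6nl, a GTPase-activating protein gene of endosome traffic, had 10 late events, 3 of them supported and 2 doubly late, with a highest score of 182 and 8 inside the gene (chr2:6322757-6448296). Kynu, the kynureninase gene of tryptophan breakdown, had 2, of which 1 was doubly late with a score of 279. Of 1005 microRNA hairpins, 184 (18.3%) had a late event within 10 kb and 16 a supported one, whether or not an earlier event lay near. Among these 16 the highest score, 406, was near the pair Mir181a-2 and Mir181b-2, where 1 earlier anti-FoxA1 event was also counted. Late events with this score lay inside Nr6a1 on chromosome 2 and near Qrsl1 on chromosome 10. The one inside Nr6a1 was 123 bp from an earlier anti-FoxA1 event and 77 bp from an event of the combined list at 24 h. For the one near Qrsl1 these distances were 9139 and 164 bp. The genes and microRNAs named in this paragraph were chosen after their values were seen.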
